A study of Mus musculus with 6 samples.

Results

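The 10 genes studied here mark meningeal fibroblasts, with collagens left aside, and were read from RNA-seq of mouse striatum: the growth factor pair Igf2 and Igfbp2, the small leucine-rich proteoglycans Dcn, Lum, Ogn and Fmod, the matrix glycoproteins Fn1, Fbln1 and Postn, and the matrix protein Mgp. The genes were chosen by name, with earlier results of these data known. Each symbol matched 1 Ensembl gene, and these 10 genes are part of the 55335 in the count files. All 10 passed the filter on low counts that left 19809 genes to test. The study compared the striatum of C57 mice of 2 genotypes, 3 wild-type control samples and 3 samples labelled as overexpressing PDE5A, a phosphodiesterase that breaks down cyclic GMP. Neither the means of overexpression, nor what the controls received, nor the animals' age is stated in the labels. The labels do not say whether each sample is a different animal, so p-values measure the spread between samples, which may be technical.

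Fibroblasts of the brain lie in the meninges, in the stroma of the choroid plexus and in the walls of larger vessels, and lay down the extracellular matrix there. Proteoglycans such as decorin and lumican bind collagen fibrils and govern their assembly, while fibronectin and the fibulins form a network to which cells attach through integrins. Igf2, an imprinted insulin-like growth factor, and its carrier Igfbp2 are made in the meninges and also by the epithelium of the choroid plexus, the tissue in the ventricles that secretes cerebrospinal fluid. A striatal dissection can carry more or less of either tissue. In bulk RNA, fewer cells of a type and less RNA per cell cannot be told apart.

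Libraries held 33013698 to 42288789 counts, with the 3 overexpression libraries the shallower ones. Pde5a, the manipulated gene, stood at 3.72, 4.14 and 6.08 CPM (counts scaled to a library total) in control replicates 1 to 3 and at 759.8, 699.7 and 591.2 CPM in overexpression replicates 1 to 3. All 9 striatal neuron markers were present in every library, at a summed 3304 to 6847 CPM. Overexpression replicates 1 and 2 stood apart from the other libraries in the summed level of 17 choroid plexus markers. The sum was 930.5 and 3517 CPM there and 319.2 to 456.7 CPM in the other 4 libraries. Most of the sum in those 4 libraries came from 1 marker, Enpp2, at 266.7 to 378.4 CPM. Enpp2 stood at 380.7 CPM in overexpression replicate 1 and at 970.7 CPM in replicate 2. Of these markers, Cldn2 had no counts in control replicate 2, and the other 16 had counts in every library. The 8 cortical neuron markers, a list chosen after values had been seen, summed to 547.8, 161.8 and 938.4 CPM in the controls and 355.0, 636.3 and 1202 CPM in overexpression.

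The question was whether the fibroblast genes differed with PDE5A overexpression, and whether they moved with the choroid plexus. None of the 10 passed an adjusted p of 0.05 in edgeR's quasi-likelihood test, where 0.00505% of all genes tested were called, a share that stands for Pde5a alone. At an unadjusted p under 0.05, 2 members were higher in overexpression, Fmod and Igfbp2, and none lower, against 2.25% of all genes for the higher direction. None passed in the DESeq2 Wald test, which called 0.419% of all genes, or in limma-voom, which called 0.0252%. Igf2 and Igfbp2 were several times higher in overexpression replicate 2, where Ttr was highest, while the other 8 genes, summed, held between 38.3 and 47.1 CPM in every library. Fn1 made up the largest part of that sum, at 13.3 to 22.3 CPM. Taken singly, these 8 genes were not flat: the highest library exceeded the lowest 1.27-fold (Dcn) to 2.65-fold (Ogn). The log2 fold change, overexpression over control, was positive for 8 of 10 members with a median of 0.25, against 50.6% positive and a median of 0.0016 over all genes tested. Without Igf2 and Igfbp2, 6 of 8 were positive and the median was 0.11. Because the members were chosen with earlier results known, their counts beside the shares of all genes are a description only.

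**Figure D1:**
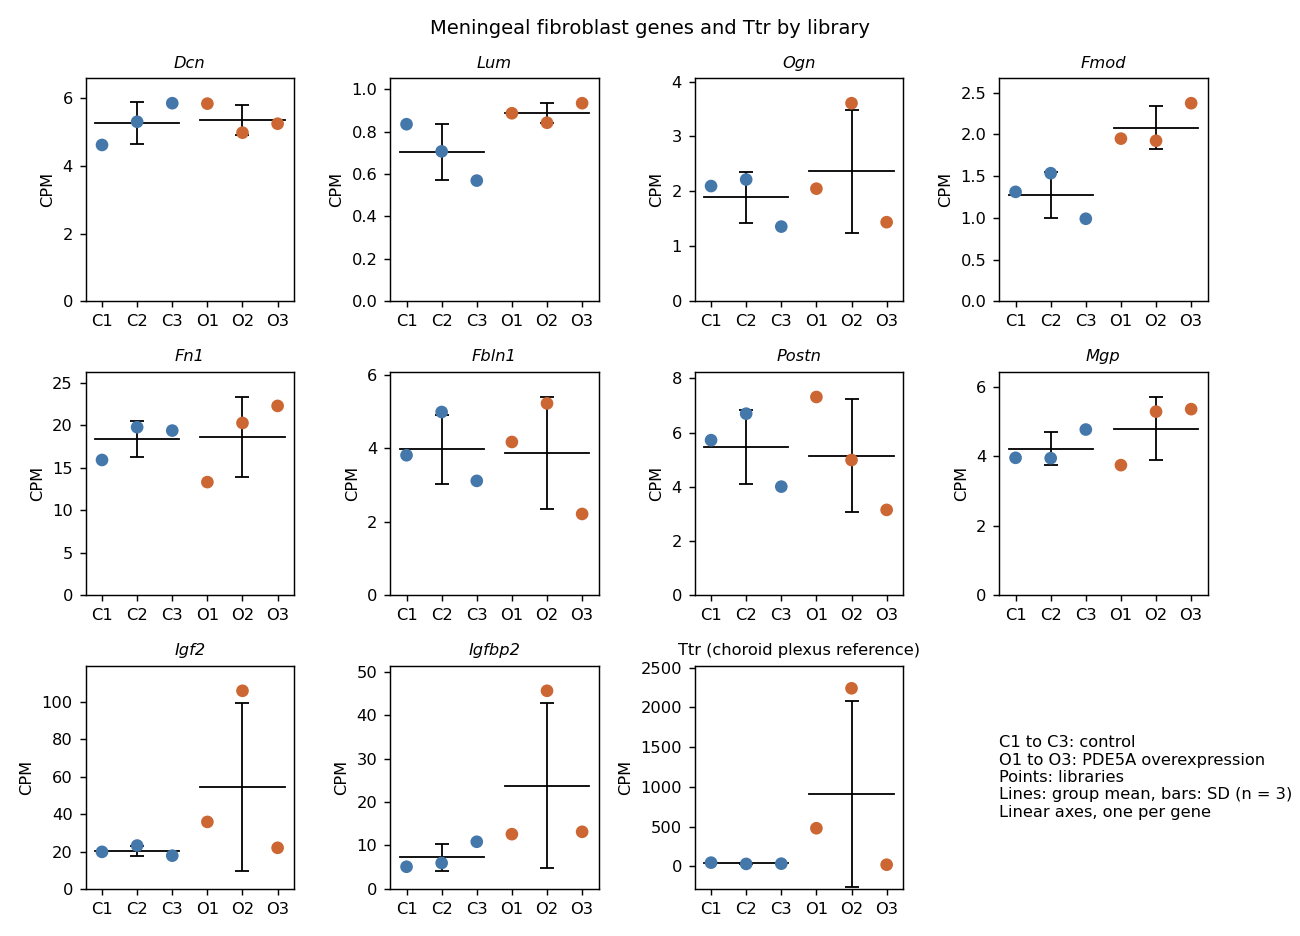
Level of each of the 10 fibroblast genes and of Ttr in the 6 libraries, in CPM on a linear axis of its own, with group means and SD (n = 3). Igf2 and Igfbp2 share with Ttr a peak in overexpression replicate 2 (O2), at 105.9, 45.6 and 2240 CPM, and the groups overlap for 7 of the 10 genes.

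Per transcript length the members fell into a few levels. In control, Igfbp2, Mgp and Igf2 were the highest, at 10.7 ± 4.52, 9.61 ± 1.18 and 9.53 ± 1.02 TPM (counts scaled by exon length and library, SD, n = 3), and these 3 did not differ beyond their spread. Fn1 followed at 4.23 ± 0.322 TPM. Fbln1, Dcn, Ogn and Postn stood at 2.44 ± 0.501, 2.43 ± 0.248, 1.99 ± 0.484 and 1.69 ± 0.393 TPM, where neighbours in this order differed by less than the larger of their 2 SDs. Fmod had 1.04 ± 0.204 and Lum 0.778 ± 0.173 TPM, levels whose ranges of 1 SD overlap. In overexpression Igfbp2 and Igf2 led at 35.5 ± 26.9 and 26.2 ± 20.7 TPM, with SDs set by a single library, and Mgp had 11.3 ± 2.18 TPM.

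Igf2 (ENSMUSG00000048583) lies on the minus strand of chromosome 7 from 142650766 to 142666816 in mm10. It had 19.8, 23.2 and 17.8 CPM in control replicates 1 to 3 and 35.8, 105.9 and 22.0 CPM in overexpression replicates 1 to 3. Overexpression replicates 2 and 1 were the 2 highest libraries, and overexpression replicate 3 lay inside the control range, so the groups overlapped. The fold was 2.69 with a 95% interval of 0.908 to 7.97, a log2 fold change of 1.43 (SE 0.62), at an adjusted p of 0.99996 in edgeR's quasi-likelihood test. The log2 fold change was 0.51 without overexpression replicate 2 and 0.12 when overexpression replicate 3 was set alone against the controls, a comparison in which the lone library is assumed to vary like the controls. With the log2 CPM of Ttr as a covariate it was 0.22. Ttr was high only in overexpression replicates 1 and 2, so for every gene this covariate overlaps with the group. The setting is not independent of overexpression replicate 3 alone against the controls, and it does not separate choroid plexus content from group. A pair of other gene models share exons with Igf2: the read-through model Gm49394 had no counts, and the antisense transcript Igf2os had 0, 0 and 2 counts in control and 9, 13 and 0 in overexpression, beside at least 719 counts of Igf2 in every library.

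Igfbp2 (ENSMUSG00000039323), which encodes a binding protein that holds insulin-like growth factors outside the cell, lies on chromosome 1, plus strand, 72824503 to 72852474. Its levels were 5.10, 5.97 and 10.9 CPM in the control libraries and 12.6, 45.6 and 13.1 CPM in the overexpression libraries. All 3 overexpression libraries were above all 3 controls, but overexpression replicates 1 and 3 stood close to control replicate 3. The fold was 3.25 with a 95% interval of 1.05 to 10.1, a log2 fold change of 1.70 (SE 0.65), with an unadjusted p of 0.0436 and an adjusted p of 0.99996 in edgeR's quasi-likelihood test. It was 0.82 on the log2 scale without overexpression replicate 2, 0.83 with Ttr as a covariate and 0.85 with overexpression replicate 3 alone against the controls.

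Ttr, which carries thyroid hormone into cerebrospinal fluid, was at 48.4, 32.6 and 35.7 CPM in the control libraries and 480.9, 2240 and 22.5 CPM in the overexpression libraries. Relative to the control mean, Ttr was 12.4-fold in overexpression replicate 1 and 57.6-fold in replicate 2, where Igf2 was 1.77-fold and 5.23-fold and Igfbp2 was 1.72-fold and 6.24-fold. In overexpression replicate 3 Ttr was at 0.578 of the control mean, Igf2 at 1.08 and Igfbp2 at 1.80. For each 100 CPM by which Ttr exceeded its control mean, Igf2 exceeded its own by 3.52 CPM in overexpression replicate 1 and by 3.89 CPM in replicate 2. The same quantity for Igfbp2 was 1.20 and 1.74 CPM. For the other 8 members it lay between -1.14 (Fn1) and 0.416 (Postn) in replicate 1 and between -0.022 (Postn) and 0.0872 (Fn1) in replicate 2. Igf2 was thus high in the 2 libraries where Ttr was high, whereas Igfbp2 was also above every control in the overexpression library where Ttr was lowest. The part of choroid plexus tissue in either difference was not tested.

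**Figure D2:**
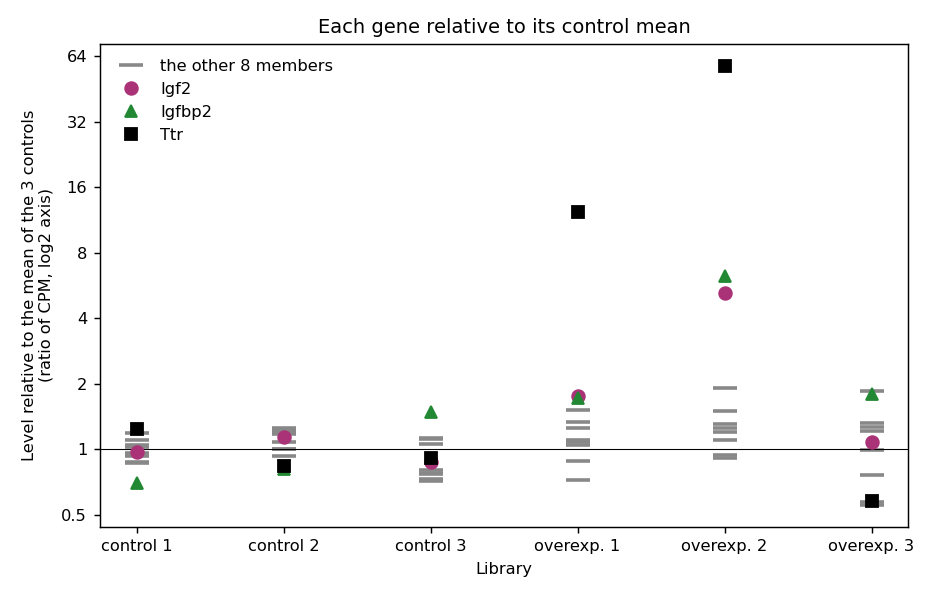
Ratio of each gene's CPM in a library to the mean of the 3 controls, on a log2 axis, for Ttr (squares), Igf2 (circles), Igfbp2 (triangles) and the other 8 fibroblast genes (dashes). In overexpression replicate 2 Ttr is at 57.6, Igfbp2 at 6.24 and Igf2 at 5.23 times the control mean, and the highest of the other 8, Ogn, is at 1.91.

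Promoter windows are shown for Igf2 and Igfbp2, the pair with the widest range, and for Postn, whose pattern over the libraries is described further on. RefSeq (GRCm38.p6) gave start sites for 6 of the 10 members, 12 windows in all, among them 4 for Igf2 and 2 each for Igfbp2, Postn and Fbln1, and 1 each for Fmod and Ogn. The 2 windows of Fbln1 overlap each other. The windows are the 250 bases before a start, printed on the strand of the gene. Capitals mark GGGCGG or TATAAA on either strand, the GC-box core and the TATA box, which do not overlap each other here.
Igf2, the most downstream of its 4 starts, chr7:142657497-142657746, minus strand: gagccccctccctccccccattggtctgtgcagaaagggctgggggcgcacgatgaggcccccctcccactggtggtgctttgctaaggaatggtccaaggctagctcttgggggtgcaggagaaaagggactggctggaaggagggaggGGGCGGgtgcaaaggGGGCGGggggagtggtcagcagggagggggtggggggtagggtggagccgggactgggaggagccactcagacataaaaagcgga
Igfbp2, the more upstream start, chr1:72824230-72824479, plus strand: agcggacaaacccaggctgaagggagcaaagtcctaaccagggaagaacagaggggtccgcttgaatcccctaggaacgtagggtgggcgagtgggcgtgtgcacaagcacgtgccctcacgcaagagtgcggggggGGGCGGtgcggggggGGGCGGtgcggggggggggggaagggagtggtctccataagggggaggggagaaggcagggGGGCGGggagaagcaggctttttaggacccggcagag
Postn, the more downstream start, chr3:54360857-54361106, plus strand: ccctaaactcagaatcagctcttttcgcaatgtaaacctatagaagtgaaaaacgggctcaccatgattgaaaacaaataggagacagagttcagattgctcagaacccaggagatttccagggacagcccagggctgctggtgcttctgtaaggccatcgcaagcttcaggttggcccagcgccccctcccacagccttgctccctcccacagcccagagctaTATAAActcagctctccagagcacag
GGGCGG occurred in 4 of the 12 member windows, 2 of them of Igf2 and 1 each of Igfbp2 and Fbln1, and in 32.7% of the 32851 windows of all genes. TATAAA occurred in 2 of 12, from Ogn and Postn, and in 12.4% of all. Further motifs were searched on both strands: GGAATG was in 4 of 12 member windows, 3 of them of Igf2 and 1 of Ogn, and in 12.6% of all, TGANTCA in 1 of 12 and 6.7%, and CANNTG in 7 of 12 and 66.2%. The printed Igf2 and Igfbp2 windows held 66.0% and 67.2% G and C, and the Postn window 52.0%, against a median of 52.4%. For each of these genes the printed window is the one with the most marked motifs. The windows not printed held 50.8%, 47.6% and 68.8% for Igf2, 56.4% for Igfbp2 and 40.4% for Postn. Windows of 1 gene are not independent of each other, so these counts are not to be read against the shares of all windows. The files count reads per gene, so which start was used in these libraries was not measured.

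Of the 4 small leucine-rich proteoglycans, Dcn, which encodes decorin, varied least. Dcn (ENSMUSG00000019929, chromosome 10, plus strand, 97479609 to 97518143) had 4.62, 5.31 and 5.86 CPM in the control libraries and 5.85, 4.99 and 5.25 CPM in the overexpression libraries. The groups overlapped throughout, and the highest library exceeded the lowest 1.27-fold. The fold was 1.02 with a 95% interval of 0.798 to 1.30. Its neighbour Lum, lumican (ENSMUSG00000036446, chromosome 10, plus strand, 97565128 to 97572703), had 0.834, 0.706 and 0.569 CPM in the control libraries and 0.886, 0.841 and 0.933 CPM in the overexpression libraries. The groups of Lum were separate by a margin of 0.834 against 0.841 CPM, on 23 to 35 counts a library. Its fold was 1.26 with a 95% interval of 0.811 to 1.96.

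Fmod, fibromodulin (ENSMUSG00000041559, chromosome 1, plus strand, 134037254 to 134048277), had the smallest p among the members. It had 1.31, 1.53 and 0.989 CPM in the control libraries and 1.95, 1.92 and 2.37 CPM in the overexpression libraries. Every overexpression library was above every control, and the highest was overexpression replicate 3, in which Ttr was lowest. The fold was 1.63 with a 95% interval of 1.11 to 2.39, a log2 fold change of 0.70 (SE 0.24), with an unadjusted p of 0.0191 and an adjusted p of 0.99996 in edgeR's quasi-likelihood test, where it ranked 328 of 19809. With Ttr as a covariate the log2 fold change was 0.84, and with overexpression replicate 3 alone against the controls it was 0.89. Counts were low, 40 to 89 a library.

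Ogn, osteoglycin (ENSMUSG00000021390, chromosome 13, plus strand, 49608046 to 49624501), had 2.10, 2.22 and 1.36 CPM in the control libraries and 2.05, 3.61 and 1.44 CPM in the overexpression libraries. Overexpression replicate 2 was the highest, and the other 2 overexpression libraries lay inside the control range. The log2 fold change was 0.32 (SE 0.36) and became -0.12 without overexpression replicate 2 and -0.33 with Ttr as a covariate. In all, the groups were separate for 3 of the 10 members, Fmod, Igfbp2 and Lum, all higher in overexpression. Of all genes tested, 4.79% were separate in that direction, 4.11% in the other and 8.9% in either. Because the members were chosen with earlier results known, this comparison is a description only.

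**Figure D3:**
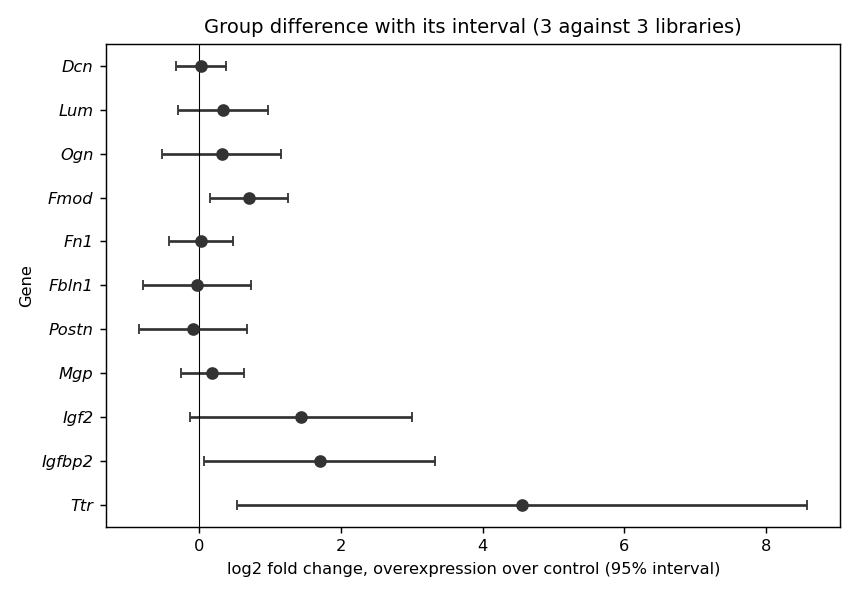
Log2 fold change, overexpression over control, with its 95% interval from edgeR's quasi-likelihood fit, for the 10 fibroblast genes and Ttr. Intervals leave out 0 for Fmod (0.15 to 1.25), Igfbp2 (0.07 to 3.33) and Ttr (0.53 to 8.58), before any adjustment for the number of genes.

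Among the matrix glycoproteins, Fn1, fibronectin, which endothelial cells also make, had 15.9, 19.8 and 19.4 CPM in the control libraries and 13.3, 20.3 and 22.3 CPM in the overexpression libraries. Fn1 (ENSMUSG00000026193, chromosome 1, minus strand, 71585520 to 71653200) had its lowest and its highest level in overexpression libraries, replicates 1 and 3. The fold was 1.01 with a 95% interval of 0.739 to 1.39. The antisense gene Apol7d, which shares 292 exon bases with Fn1, had 1 count in all.

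Fbln1, fibulin 1, a calcium-binding matrix glycoprotein (ENSMUSG00000006369, chromosome 15, plus strand, 85205949 to 85286535), had 3.81, 4.99 and 3.12 CPM in the control libraries and 4.18, 5.23 and 2.21 CPM in the overexpression libraries. The lowest library was overexpression replicate 3 and the highest overexpression replicate 2, with the controls between them. The fold was 0.973 with a 95% interval of 0.575 to 1.65. Postn, periostin, a matricellular protein that binds integrins (ENSMUSG00000027750, chromosome 3, plus strand, 54361109 to 54391037), had 5.72, 6.70 and 4.01 CPM in the control libraries and 7.32, 4.99 and 3.15 CPM in the overexpression libraries. Its highest and lowest libraries were again overexpression libraries, replicates 1 and 3. The fold was 0.941 with a 95% interval of 0.555 to 1.60.

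The order of the libraries in Postn was close to that of the striatal neuron markers, a comparison made after the values had been seen. The mean of those 9 markers, such as Ppp1r1b, Drd1 and Adora2a, came to 8.65, 9.09 and 8.27 log2 CPM for the controls and to 9.07, 8.72 and 8.02 for overexpression. After each profile was centred on its mean over the 6 libraries, Postn and the marker mean differed by a root mean square of 0.09 on the log2 scale, whereas Postn differed from a flat profile by 0.42. Of the 16040 genes tested with a mean of at least 1 CPM, 0.305% were as close to the marker mean as Postn, and their median distance was 0.41. Postn was picked out as the closest match among 10 members and 8 reference profiles, so a small share follows from the choice and is given as a description. For Fbln1 the distance was 0.21, which 2.67% of genes matched, and for Ogn it was 0.38, which 37.0% matched. Both Postn and Fbln1 were lowest in overexpression replicate 3 and control replicate 3, which had the highest cortical neuron markers. Whether neurons carry these transcripts was not tested, and 6 libraries share depth and dissection in each of these values.

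**Figure D4:**
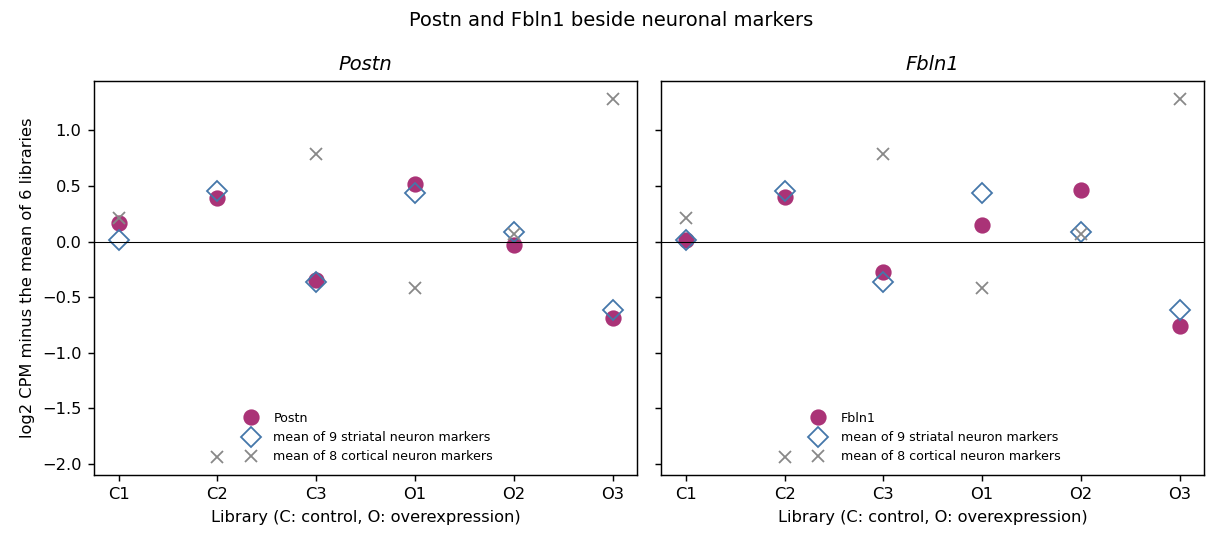
Log2 CPM minus the mean of the 6 libraries for Postn (left) and Fbln1 (right), beside the mean of 9 striatal neuron markers and of 8 cortical neuron markers. Postn lies within a root mean square of 0.09 of the striatal markers and Fbln1 within 0.21, and the cortical markers have the opposite sign in control replicates 2 and 3 and in overexpression replicates 1 and 3.

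Mgp, matrix Gla protein, an inhibitor of calcification that vessel walls also make (ENSMUSG00000030218, chromosome 6, minus strand, 136872435 to 136875823), had 3.96, 3.95 and 4.77 CPM in the control libraries and 3.75, 5.29 and 5.36 CPM in the overexpression libraries. Overexpression replicates 2 and 3 were the highest libraries and overexpression replicate 1 the lowest. The fold was 1.14 with a 95% interval of 0.835 to 1.54. Over the 10 members, the highest value fell in overexpression replicates 2 and 3 for 4 genes each, and in overexpression replicate 1 and control replicate 3 for 1 gene each. The lowest value fell in control replicate 3 for 4 genes, and in control replicate 1 and overexpression replicates 1 and 3 for 2 genes each.

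Of 29 further genes of meningeal and perivascular fibroblasts, 25 were tested, 0 passed the threshold in edgeR's quasi-likelihood test and 1, Serping1, in the DESeq2 Wald test, 19 were positive and the median log2 fold change was 0.23. By the unadjusted p under 0.05 of edgeR's quasi-likelihood test, 4 were higher and 1, Crabp2, lower, against 3.89% of all genes in either direction. The groups were separate for 5 higher and 1 lower, 24% of those tested, against 8.9% of all genes in either direction. This list too was chosen with earlier results known, so these shares are a description only. Crabp2, lower in both counts, had 1.81, 2.39 and 1.83 CPM in the control libraries and 1.52, 1.38 and 1.39 CPM in overexpression. Serping1, the C1 inhibitor of complement, had 2.46, 2.51 and 2.18 CPM in the control libraries and 5.54, 6.25 and 3.87 CPM in the overexpression libraries, with an adjusted p of 0.626 in edgeR's quasi-likelihood test and 0.00245 in the DESeq2 Wald test. Slc13a4, a sulfate transporter found in meninges and choroid plexus, had 1.12, 0.950 and 0.989 CPM in the control libraries and 2.46, 12.9 and 1.81 CPM in the overexpression libraries. Its highest library was again the one with the most Ttr, and every overexpression library was above every control, also the one with the least Ttr. Pcolce, an enhancer of procollagen processing, had 1.76, 2.34 and 2.13 CPM in the control libraries and 3.57, 7.42 and 2.77 CPM in the overexpression libraries. Foxd1, a forkhead factor, stood at 0.438 to 0.544 CPM in control and 0.607 to 1.35 CPM in overexpression.

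The fibrillar collagens that meningeal fibroblasts secrete had overlapping groups. Col1a1 had 3.05, 2.95 and 3.24 CPM in the control libraries and 3.64, 3.55 and 3.04 CPM in the overexpression libraries, Col1a2 had 2.73 to 5.23 CPM and Col3a1 0.643 to 1.19 CPM over the 6 libraries. Of the vascular lists, 10 mural cell markers summed to 180.0 to 225.0 CPM and 9 endothelial markers to 183.5 to 254.9 CPM, with medians of -0.01 and -0.06. Among mural markers Vtn, vitronectin, had 41.9, 46.9 and 45.1 CPM in the control libraries and 54.3, 51.8 and 54.2 CPM in the overexpression libraries, with an adjusted p of 0.937 in edgeR's quasi-likelihood test. The 9 ependymal markers summed to 31.8 to 49.0 CPM with a median of 0.03, and 1 of them, Ccdc153, was separate and lower, at 4.72 to 6.84 CPM in control and 2.93 to 4.33 CPM in overexpression. That is 11.1% of the list, near the 8.9% of all genes separate in either direction.

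Partners of the members in their pathways were read from the same fit, in which none passed with edgeR or with the DESeq2 Wald test. Of 17 other genes of the insulin-like growth factor system, 13 were tested, 0 passed, 0 had an unadjusted p under 0.05 and 0 had separate groups, with 8 positive and a median of 0.03. Igfbp5, a binding protein, had 266.8, 179.1 and 196.2 CPM in the control libraries and 271.5, 223.7 and 238.9 CPM in the overexpression libraries. Igfbp6 and Igfbp7, other binding proteins, had 10.5 to 18.1 and 6.77 to 9.38 CPM in control and 14.5 to 26.8 and 7.80 to 11.1 CPM in overexpression. H19, the maternally expressed neighbour of Igf2, was too low to test, at up to 6 counts a library.

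Of 13 other small leucine-rich proteoglycans, 9 were tested, 0 passed and 0 had an unadjusted p under 0.05, with 4 positive and a median of -0.0065. Aspn, asporin, the only 1 of the 9 with separate groups (11.1%, near the share of all genes), was lower, at 1.74, 1.85 and 1.48 CPM in the control libraries and 1.24, 1.26 and 1.25 CPM in the overexpression libraries, with an adjusted p of 0.99996 in edgeR's quasi-likelihood test, while Bgn, biglycan, the closest relative of Dcn, had 6.29, 7.53 and 7.12 CPM in the control libraries and 6.94, 8.74 and 8.64 CPM in the overexpression libraries. Of 11 integrins and other matrix receptors 10 were tested, and of 7 relatives of Fbln1 and Postn all 7. None passed, none had an unadjusted p under 0.05, and medians were 0.03 and 0.07. Of 14 genes of transforming growth factor beta signalling, which drives matrix genes in fibroblasts, 0 passed, 0 had an unadjusted p under 0.05 and 11 were positive with a median of 0.11. Smad7, an inhibitor of that pathway, was separate, at 27.7 to 29.2 CPM in control and 30.4 to 31.3 CPM in overexpression, which is 7.14% of the list against 8.9% of all genes separate in either direction.

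The genes outside every list whose centred profile lay closest to the mean profile of the 10 members were Slc4a2, Map3k14, Gmfg, Il1r1 and Bmp7, at root mean square distances of 0.08 to 0.09 on the log2 scale over 6 libraries, among 15901 candidates. Slc4a2, an anion exchanger, had 44.6, 45.7 and 37.0 CPM in the control libraries and 47.6, 66.9 and 46.4 CPM in the overexpression libraries. Bmp7, a bone morphogenetic protein, had 5.34, 6.82 and 4.99 CPM in the control libraries and 6.78, 9.83 and 6.83 CPM in the overexpression libraries. They were chosen for likeness to a mean that itself peaks in overexpression replicate 2, so their own peak there is set by the choice. The peak of the mean came largely from Igf2 and Igfbp2, with centred values of 1.83 and 1.96 there. The other members reached at most 0.82 (Ogn), so the mean is not a profile that all members share.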

How the data were processed

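Total RNA of 6 striatum samples was isolated with Trizol and made into strand-specific TruSeq libraries, per the labels' protocols. Each file deposited by the authors held whole-number raw counts per gene for 1 sample. The submitters' processing notes name STAR 2.5.3a, FastQC 0.11.5, DESeq 1.16.1 and Cuffnorm, with build mm10. How reads were counted, whether by strand and on which annotation, is not given in the sources used here, so antisense and overlapping genes are uncertain. Samples were grouped by title. Of 55335 identifiers 55154 had a symbol in GENCODE M21, from which coordinates and exon lengths came, and the others held at most 0.0129% of a library. Within groups no pair of libraries agreed within counting noise (chi-square over degrees of freedom 19.3 to 50.3).

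Tests used edgeR 4.0.16 in R 4.3.3 (TMM, filterByExpr, robust quasi-likelihood, two-sided, Benjamini-Hochberg over 19809 genes, threshold 0.05). Standard errors and 95% intervals were derived from that test. CPM used TMM-adjusted totals, and TPM the merged exon length. Log2 CPM had a prior count of 2. In simulated counts for this comparison over 19809 genes, 200 genes with a mean of at least 1 CPM were changed. The test found 69% of the 2-fold and 99% of the 4-fold changes. Of its 187 calls 19 were false, a larger share than the threshold of 0.05. The DESeq2 Wald test made 245 calls, of which 63 were false. Each gene was drawn independently, so shifts shared by many genes, such as those of the choroid plexus markers, were not simulated. In the data the test called 1 gene, so a gene needed a smaller unadjusted p there than in the simulation. The shares therefore do not carry over to the members, such as Lum, below 1 CPM, or Igf2 and Igfbp2, with their wide spread. Alternatives were other size factors, DESeq2 1.42.0, limma-voom 3.58.1, other filters, a replicate block, Ttr as a covariate and left-out libraries. The members and lists were chosen with earlier results of these data known. Genes named are the members, Ttr, up to 4 genes per list with the smallest p, and the 5 closest profiles among genes of at least 1 CPM. Pde5a, Enpp2, Crabp2, overlapping genes, H19, the cortical list and the striatal profile comparison were added after values were seen.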

Additional observations from a re-analysis of the deposited data

How the results depend on the processing

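In each of the 15 alternatives, 0 of the members tested passed the threshold, including the DESeq2 Wald test, which called 83 genes in all, and the median log2 fold change stayed positive, between 0.09 and 0.33 when 1 library was left out. With at least 1 CPM in all 6 libraries Lum and Fmod were not tested, and the median of the other 8 was 0.11. Igf2, Igfbp2 and Mgp stayed positive in 15 of 15 alternatives and Fmod and Lum in 14 of 14, with log2 fold changes of 0.12 to 1.80 for Igf2, 0.82 to 2.10 for Igfbp2, 0.55 to 0.89 for Fmod, 0.09 to 0.34 for Mgp and 0.21 to 0.48 for Lum. The direction of the other 5 turned with single libraries. When 1 library was left out, Dcn ran from -0.052 to 0.11, Fn1 from -0.13 to 0.21, Ogn from -0.12 to 0.57, Fbln1 from -0.31 to 0.24 and Postn from -0.43 to 0.17. With overexpression replicate 3 alone against the controls, Dcn was -0.0028, Ogn -0.39, Fbln1 -0.84 and Postn -0.80. With Ttr as a covariate, which overlaps with the group, Ogn was -0.33, Fbln1 -0.66 and Postn -0.50. Fn1 was -0.015 with limma-voom and -0.0048 with the replicate block. The cause was not tested. The replicate block called 3 genes in place of 1 and 0 members, with a member median of 0.22. Samples share only a number: deviations of same-numbered samples correlated at -0.02, 0.03 and 0.29, and control replicate 2 correlated best with overexpression replicate 1 (0.35). Low counts of Lum and Fmod limit what could be detected.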
